A study of Mus musculus with 12 samples.

Results

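The genes described here encode respiratory complexes II to V of the mitochondrial inner membrane, with the factors of complex IV whose symbols carry the same prefix. They were chosen by symbol among protein-coding genes of the mouse annotation GRCm38: symbols that begin with Sdh (without the Sdhaf assembly factors), Uqcr, Cox followed by a digit, Atp5, mt-Co, mt-Cytb or mt-Atp. The rule gave 62 of the 38293 genes in the table: 4 of complex II, 9 of complex III, 21 subunits and 9 assembly factors of complex IV, and 19 of complex V. Of these, 6 are encoded in mitochondrial DNA (mt-Cytb, mt-Co1, mt-Co2, mt-Co3, mt-Atp6 and mt-Atp8). The filter on low counts kept 59 for testing. The other three were Cox7b2, with reads in 3 of 12 pools and at most 0.259 CPM (counts scaled to library size), and Cox8c and Atp5g2, both listed at 0 in every pool.

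Mouse embryos at E15.5 gave the RNA, from their heart ventricles. Each of 4 genotypes was sampled as 3 pools, and a pool joined 4 pairs of ventricles. The wild-type (WT) embryos were set beside a triple heterozygote, Mib1 R530X/+; Asxl3 M1415V/+; Apcdd V150I/+ in the sample labels (the series description writes Asxl3 M1361V and Apcdd1). The Mib1 mutant was Mib1 R530X/flox; Tnnt2-Cre/+, and its control, called the Cre control here, was Mib1 flox/+; Tnnt2-Cre/+. Tnnt2-Cre acts in cardiomyocytes, so the floxed allele is a target in those cells only, whereas the stop allele R530X is in all cells of the Mib1 mutant and of the triple heterozygote. Mib1 encodes a ubiquitin ligase that Notch ligands need in the cells that present them. WT carries neither flox nor Cre, and the 2 genotype comparisons have different controls. Reads were single, 60 bases long, from polyA RNA. The table names the columns used for the triple heterozygote only as mutant, so their assignment to that genotype is an inference from the names of the other columns.

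Libraries held 10103476 to 22157646 estimated reads, the deepest being pool 2 of the triple heterozygote. Mib1 itself was at 126 to 145 CPM in WT, 57.9 to 74.1 in the triple heterozygote, 101 to 108 in the Cre control and 50.1 to 54.8 in the Mib1 mutant, and it was called lower in both mutant genotypes (log2 fold change -1.01, SE 0.0941, and -0.99, SE 0.0918). Summed over 10 cardiomyocyte markers, the level was 40821 to 55851 CPM over the 12 pools. Summed CPM of 4 atrial markers was 768 to 1262.

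Complex II (succinate dehydrogenase) oxidises succinate in the citric acid cycle and passes electrons to ubiquinone. Complex III carries them on to cytochrome c, complex IV gives them to oxygen, and complex V uses the proton gradient to make ATP. Complex II is encoded wholly in the nucleus, while complexes III, IV and V join nuclear subunits to a few made from mitochondrial DNA. Heart muscle is rich in these complexes, and several complex IV subunits have a form of their own in striated muscle. Nuclear respiratory genes are known targets of NRF1, of ETS factors such as GABPA, of the estrogen-related receptors and of YY1, and MEF2 acts on many muscle genes.

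Among the nuclear genes, 43 of 56 had a RefSeq promoter window of 300 bases (250 before the start and 50 from it on), matched by symbol or synonym; those without one included Cox6a2, Uqcrc2, Cox4i1 and Atp5a1. Both strands were searched for NRF1 (GCGCATGCG), ETS (CCGGAAGT), estrogen-related receptor (CAAGGTCA), YY1 (AAGATGGC) and MEF2 (CTATTTATA) motifs. At least 1 was present in 19 of the 43 windows (44.2%), against 11.1% of the 27025 genes with a window. The ETS motif was in 8 (18.6%, against 4.31% of all), NRF1 in 6 (14%, against 1.95%), YY1 in 5 (11.6%, against 3.19%), the estrogen-related receptor motif in 3 (7.0%, against 1.76%) and MEF2 in 0 (against 0.492%). A match describes these letters only. The 6 windows below carry 1 or 2 matches each, except that of Cox7a1, and were chosen to set a ubiquitous isoform gene (Cox6a1, Cox8a) beside a striated-muscle one (Cox7a1) and to show genes that are named in the results. Cox7a2, the ubiquitous counterpart of Cox7a1, was not among the 19 genes with a match, so the windows shown do not compare these kinds of isoform.

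The first 280 bases of each window are printed 5′ to 3′ on the gene's strand (GRCm38.p6, RefSeq), with motif matches in capitals. Cox6a1 (chr5:115348929-115349208, minus strand) holds the NRF1 motif on both strands, as 1 overlapping run that begins at -162, counted from the start base as 0. Cox7a1 (chr7:30183921-30184200, plus strand) has no match. Cox8a (chr19:7217587-7217866, minus strand) has an ETS match at -6. Cox10 (chr11:64079443-64079722, minus strand) has an ETS match at -27 and a YY1 match at 21. Uqcr11 (chr10:80406792-80407071, minus strand) has an ETS match at -66 and an NRF1 match at -5. Atp5g3 (chr2:73911297-73911576, minus strand) has an estrogen-related receptor match at -52.
Cox6a1: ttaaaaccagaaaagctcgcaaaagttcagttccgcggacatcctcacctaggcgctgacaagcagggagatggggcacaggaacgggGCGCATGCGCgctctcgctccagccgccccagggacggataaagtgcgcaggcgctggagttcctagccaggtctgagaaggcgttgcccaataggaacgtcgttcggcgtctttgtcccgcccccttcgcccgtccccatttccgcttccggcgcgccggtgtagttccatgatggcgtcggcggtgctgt
Cox7a1: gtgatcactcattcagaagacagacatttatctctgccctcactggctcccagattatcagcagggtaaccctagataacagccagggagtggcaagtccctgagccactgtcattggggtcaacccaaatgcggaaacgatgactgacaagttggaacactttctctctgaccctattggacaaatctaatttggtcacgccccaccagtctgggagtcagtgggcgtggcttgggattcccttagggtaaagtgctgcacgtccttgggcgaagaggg
Cox8a: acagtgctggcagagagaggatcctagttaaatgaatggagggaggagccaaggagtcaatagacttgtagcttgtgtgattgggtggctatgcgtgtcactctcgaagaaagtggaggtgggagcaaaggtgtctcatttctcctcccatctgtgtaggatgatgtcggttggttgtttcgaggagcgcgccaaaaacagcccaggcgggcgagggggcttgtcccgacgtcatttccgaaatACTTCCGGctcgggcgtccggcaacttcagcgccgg
Cox10: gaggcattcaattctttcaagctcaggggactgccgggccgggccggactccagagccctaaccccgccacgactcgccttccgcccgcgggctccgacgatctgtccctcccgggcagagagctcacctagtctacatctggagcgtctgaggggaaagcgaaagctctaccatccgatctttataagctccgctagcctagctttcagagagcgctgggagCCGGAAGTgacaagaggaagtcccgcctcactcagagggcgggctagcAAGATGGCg
Uqcr11: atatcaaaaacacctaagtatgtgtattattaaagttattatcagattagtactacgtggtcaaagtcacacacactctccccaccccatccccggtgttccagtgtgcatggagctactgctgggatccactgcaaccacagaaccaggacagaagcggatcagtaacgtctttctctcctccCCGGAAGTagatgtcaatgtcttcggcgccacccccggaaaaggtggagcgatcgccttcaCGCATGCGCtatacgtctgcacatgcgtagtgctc
Atp5g3: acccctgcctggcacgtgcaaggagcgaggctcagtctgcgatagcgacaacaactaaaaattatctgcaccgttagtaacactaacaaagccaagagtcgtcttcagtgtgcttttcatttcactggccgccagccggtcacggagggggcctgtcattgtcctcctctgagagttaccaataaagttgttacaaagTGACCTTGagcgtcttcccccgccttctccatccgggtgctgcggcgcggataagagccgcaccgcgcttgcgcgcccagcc

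Levels were compared between genes only per length, as RPKM (reads scaled to exon length and library size, mean over 12 pools). The mitochondrially encoded genes were highest: mt-Atp6 15587, mt-Co1 15436, mt-Co2 14755, mt-Co3 12624, mt-Cytb 8015 and mt-Atp8 4031 RPKM. The first 4 of these overlapped in their range over pools. The annotated gene mt-Atp8 (chrM:7766-7969) overlaps mt-Atp6 (chrM:7927-8607), so reads from the shared stretch cannot be assigned to one of them with certainty. Of the nuclear genes, the catalytic subunits Atp5b (beta) and Atp5a1 (alpha) of ATP synthase led with 886 and 875 RPKM and overlapping ranges, followed by Cox6b1 with 557. Within complex II, Sdhd, a membrane anchor, was at 297 RPKM, Sdha, the flavoprotein, at 209.7, Sdhb, the iron-sulfur subunit, at 148, and Sdhc, the other anchor, at 106. The 9 assembly factors ranged from 2.83 RPKM (Cox18) to 57 (Cox20), with Cox10 at 16.2 and Cox15 at 14.9. Cox6b2, the testis form, and Cox4i2, a lung and hypoxia-related form, were at 3.96 and 6.77 RPKM.

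The first comparison asks what loss of Mib1 in cardiomyocytes, on top of 1 stop allele everywhere, changes against the Cre control. Genes of every complex were, at the median, lower in mutant ventricles. None of these genes passed edgeR's test of this comparison in the main fit of all 12 libraries, with low counts filtered and no covariate. Of 59 genes, 56 had a negative log2 fold change, with a median of -0.23, against a median of 0.0046 and 48.8% negative over all genes tested. By edgeR's quasi-likelihood test 0 of 59 were called at an adjusted p of 0.05, where 1.5% of all genes were called. DESeq2 called 9 lower (Sdha, Sdhb, Uqcrc2, Cox6a2, mt-Co2, Cox10, Atp5a1, Atp5b and Atp5f1), where it called 3.16% of all genes, and limma-voom called 0, where it called 1.49%. Without a filter on low counts, edgeR called 4 of 60 (Cox6a2, Cox10, mt-Co2 and mt-Cytb) and 2.13% of all genes. At an unadjusted p of 0.05, 34 were lower and 0 higher, where 6.65% of all genes were lower. In 19 genes all mutant pools lay below all Cre control pools, as they did for 7.75% of all genes. In RNA of whole ventricles, fewer cardiomyocytes and less of these RNAs per cardiomyocyte cannot be told apart.

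**Figure D1:**
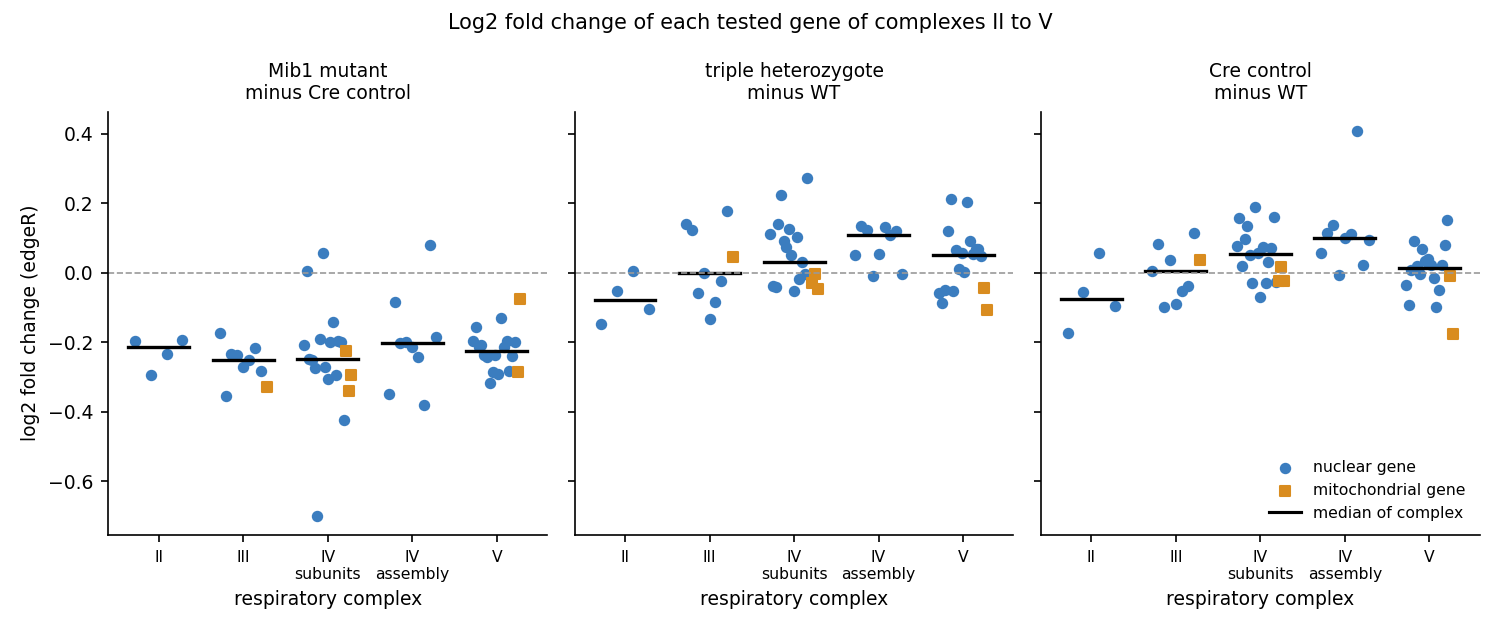
Log2 fold change (vertical axis) of each of the 59 tested genes, by complex (horizontal axis), in 3 comparisons; blue circles are nuclear genes, orange squares mitochondrially encoded genes, black lines the median of a complex. With Mib1 mutant set against Cre control the medians lie between -0.20 and -0.25, while in the other comparisons they lie between -0.08 and 0.11.

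Medians of the complexes lay close together. They were -0.21 for complex II (4 of 4 negative), -0.25 for complex III (9 of 9), -0.25 for complex IV subunits (17 of 19), -0.20 for complex IV assembly factors (8 of 9) and -0.22 for complex V (18 of 18). Genes lower at an unadjusted p of 0.05 numbered 4, 6, 10, 3 and 11 in the same order. Complex II had 4 of 4 genes with no overlap between the groups, complex III had 4 of 9, and the remaining complexes had 4, 2 and 5. The 3 positive values belonged to Cox4i2 (0.00), Cox6b2 (0.06) and Cox19 (0.08). Complex I, taken for comparison, had a median of -0.24 over 37 nuclear genes and -0.35 over 7 mitochondrially encoded ones, all 44 of them negative and none called.

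In complex II, Sdha was at 719, 768 and 769 CPM in the Mib1 mutant and at 808, 861 and 915 in the Cre control (log2 fold change -0.20, SE 0.062, adjusted p = 0.143). WT pools had 976, 980.1 and 958 CPM, above the Cre control too. Sdhb was at 249, 315 and 279.5 CPM against 317, 387 and 330.0 (-0.29, SE 0.0931, adjusted p = 0.143). Mutant pool 2 was close to Cre control pool 1 for Sdhb, and the groups did not overlap. The anchors Sdhc (-0.23, adjusted p = 0.201) and Sdhd (-0.19, adjusted p = 0.177) lay the same way, also without overlap.

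In complex III, Uqcrc2, a core subunit facing the matrix (chr7:120635176-120659524), had the smallest p. It was at 507, 618 and 559.8 CPM in the mutant and at 673, 729 and 632 in the Cre control (-0.27, SE 0.0776, adjusted p = 0.102). The other core subunit, Uqcrc1, was at 445, 501 and 488 CPM against 525, 618 and 546 (-0.24, adjusted p = 0.184). Uqcrfs1, the Rieske iron-sulfur protein, differed by -0.25 (adjusted p = 0.153). For these 3 genes every mutant pool was below every control pool. The small subunits Uqcrb, Uqcrh, Uqcrq, Uqcr10 and Uqcr11 lay between -0.36 (Uqcr11, adjusted p = 0.27) and -0.17 (Uqcr10), and their groups overlapped. mt-Cytb, cytochrome b, was at 6959, 8958 and 7283 CPM against 9044, 11032 and 9049 (-0.33, SE 0.109, adjusted p = 0.164).

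Cox6a2, the heart and skeletal muscle form of subunit VIa of complex IV (chr7:128205435-128206387), had the largest difference and the smallest p of all 59 genes. It was at 80.4, 112 and 101 CPM in the Mib1 mutant and at 123, 210.0 and 142 in the Cre control, with WT at 144, 155 and 160.0 and the triple heterozygote at 148, 192 and 148. All mutant pools lay below the pools of the other three groups, and Cre control pool 2 stood above its group. The log2 fold change was -0.70 (SE 0.168), which is 61.6% of the control, and the adjusted p of 0.0533 missed the threshold. It passed without a filter on low counts (adjusted p = 6.4e-05), with DESeq2 (0.0372) and with a covariate for the pools' sex mix (0.0399). It also passed at a minimum mean of 2 CPM (0.0481), and without Cre control pool 1 (0.0243) or Mib1 mutant pool 2 (0.0315). With a replicate block it passed as well (0.0048), though replicate numbers were not taken to pair the pools. In 17 of 24 alternatives it did not pass. Among these were limma-voom (adjusted p = 0.0638), only the libraries compared (0.161), and the fits without Cre control pool 3 (0.0862) or pool 2 (0.228).

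The other subunits with a striated-muscle form gave smaller or less certain differences. Cox8b was at 37.6, 43.7 and 26.1 CPM in the mutant against 39.3, 60.9 and 43.6 (-0.42, SE 0.18, adjusted p = 0.295). Cox7a1 was at 44.5, 63.1 and 42.9 CPM against 51, 74.7 and 60.1 (-0.31, SE 0.143, adjusted p = 0.36). Both overlapped between the groups. Their ubiquitous counterparts Cox6a1 (-0.27), Cox7a2 (-0.20) and Cox8a (-0.20) overlapped as well, with adjusted p of 0.311, 0.357 and 0.533. Cox4i1, the common form of subunit IV, differed by -0.21 and Cox6b1 by -0.19 (adjusted p = 0.371 and 0.418).

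Among the mitochondrially encoded subunits of complex IV, mt-Co2 was at 8027, 9558 and 7812 CPM in the mutant against 9819, 12156 and 10174 (-0.34, SE 0.098, adjusted p = 0.105). mt-Co1 was at 21609, 21758 and 19928 CPM against 23642, 27011 and 23366 (-0.23, SE 0.0746, adjusted p = 0.162). Neither overlapped. mt-Co3 differed by -0.29 (adjusted p = 0.2) with overlap, as mutant pool 2 reached 9592 CPM and Cre control pool 3 had 9528.

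The complex IV assembly factors ran from -0.38 to 0.08. Cox10, which makes the heme O precursor of heme A, was at 34.7, 45.5 and 43.7 CPM in the mutant against 51.3, 58.2 and 48.7 (-0.35, SE 0.1, adjusted p = 0.103). Cox15, which turns heme O into heme A, was at 67.5, 64.9 and 64.6 CPM against 73.2, 78.5 and 74.5 (-0.20, SE 0.0633, adjusted p = 0.143). Both genes of the heme A pathway were without overlap, and they were the only 2 of the 9 factors so. Cox18, needed to insert the second mitochondrial subunit, differed by -0.38 (adjusted p = 0.305) at 5.89 to 10.7 CPM. The copper factors Cox17 and Cox11 differed by -0.24 and -0.08 (adjusted p = 0.416 and 0.83).

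In complex V, Atp5a1 was at 2321, 2485 and 2593 CPM in the mutant against 2802, 2878 and 2806 (-0.20, SE 0.0579, adjusted p = 0.112). Atp5b was at 3337, 3359 and 3502 CPM against 3682, 3837 and 3835 (-0.15, SE 0.0519, adjusted p = 0.168). The pools of the 2 groups were apart for both catalytic subunits, and for Atp5c1 (gamma, -0.21), Atp5f1 (stalk subunit b, -0.24) and Atp5g3 (-0.29, adjusted p = 0.155). Atp5g3 and Atp5g1 encode the same mature c subunit of the rotor ring; Atp5g1 was at 239, 337 and 297 CPM against 329.9, 404 and 355 (-0.32, adjusted p = 0.213), with overlap. Atp5g2, the third c-subunit gene, is listed at 0 in all 12 pools, which in a table of estimated counts can be a failed estimate, so no level is given for it. mt-Atp6 differed by -0.29 (adjusted p = 0.236), whereas mt-Atp8 was at 649, 926 and 692 CPM against 653, 899 and 837 (-0.08, adjusted p = 0.865).

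**Figure D2:**
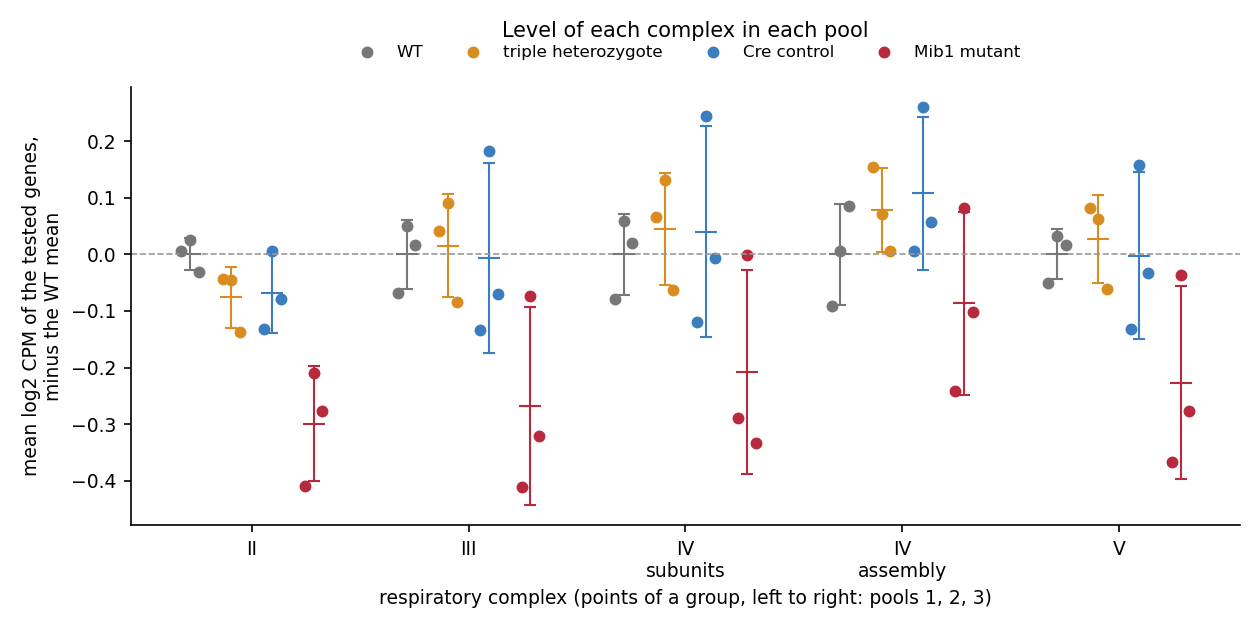
Mean log2 CPM of the tested genes of each complex in each pool, minus the WT mean (vertical axis), by complex; points are pools 1, 2 and 3 from left to right, bars the group mean and SD. In all complexes the Mib1 mutant has the lowest mean, and pool 2 is the highest pool of both Cre-carrying groups.

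Summed over the genes of complex II, the level was 1559, 1753 and 1697 CPM in the Mib1 mutant and 1849.8, 2017 and 1964 in the Cre control, which do not overlap. Over complexes II to V together it was 73705 ± 6070 CPM (SD, n = 3) in the mutant, 88434 ± 8543 in the Cre control, 87880 ± 8591 in the triple heterozygote and 89055 ± 2056 in WT. Most of that sum came from the 6 mitochondrially encoded genes, with 55677 ± 4844 CPM in the mutant and 67441 ± 7014 in the Cre control. The nuclear genes gave 18028 ± 1411 and 20994 ± 1579 CPM. Mutant pool 2 lay apart from its group: its mean log2 CPM over nuclear genes was 7.444, next to 7.449 in Cre control pool 3, while the other mutant pools had 7.135 and 7.197.

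The genes varied together from pool to pool within a genotype, and nuclear complex I genes had the same order of pools in both Cre-carrying groups. Mean log2 CPM of the complex I genes was 6.91, 7.25 and 6.99 in Cre control pools 1, 2 and 3. In the mutant pools it was 6.68, 7.02 and 6.75. Pool 2 was the highest of its group for 53 of 59 genes in the Cre control and for 51 in mutants, against 38.2% and 38.4% of the 1979 genes with a mean of at least 100 CPM. Pool 1 was the lowest for 49 and 44 genes, against 34.1% and 41.4% of the same 1979. The counts depended on these pools. Without Mib1 mutant pool 2, 17 of 59 genes were called lower, where 2.93% of all genes were called, and 51 were lower at an unadjusted p of 0.05, where 9.41% of all genes were. Without Cre control pool 2, 0 were called (0.868% of all genes), 12 were lower at that p (4.3% of all genes) and the median was -0.15. Without Mib1 mutant pool 1 or pool 3, 18 and 21 were lower at that p, against 5.52% and 6.02% of all genes. With the second pool of both groups left out, an alternative chosen after seeing the data, 58 genes were negative with a median of -0.25, 43 were lower at that p (6.52% of all genes) and 0 were called (0.962% of all genes).

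**Figure D3:**
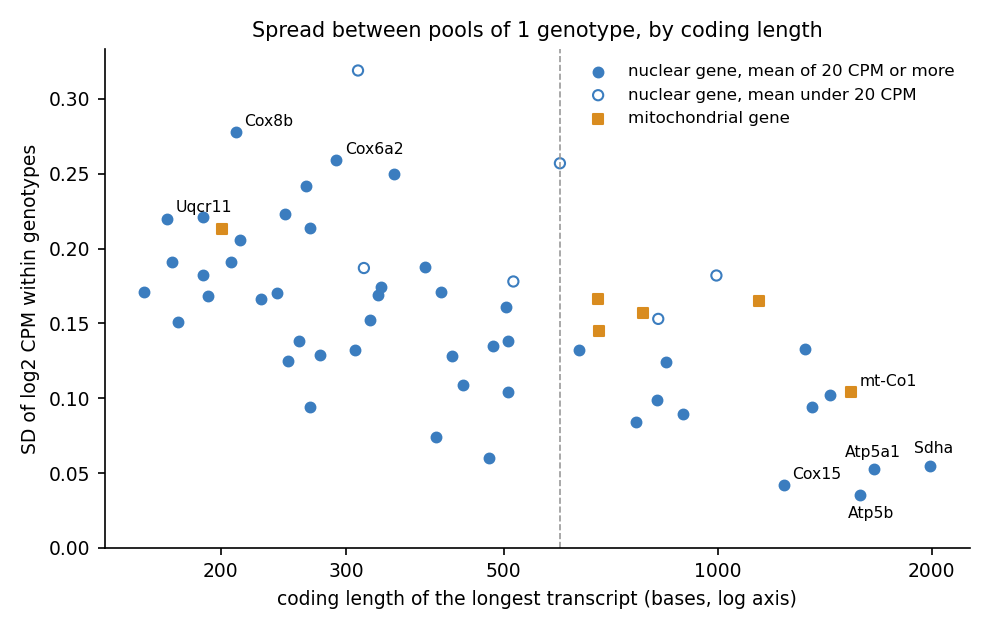
SD of log2 CPM between pools of 1 genotype (vertical axis, pooled over the 4 genotypes) against the coding length of the longest transcript in bases (horizontal log axis); filled and open blue circles are nuclear genes with a mean of at least and under 20 CPM, orange squares mitochondrial genes, and the dashed line marks 600 bases. Atp5b, Cox15, Atp5a1 and Sdha, with long coding sequences, vary least, and short genes such as Cox8b and Cox6a2 vary most.

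The spread between pools was larger, at the median, for nuclear genes with short coding sequences. The SD of log2 CPM within genotypes was lowest for Atp5b (0.035), Cox15 (0.0419), Atp5a1 (0.0525), Sdha (0.0547) and Sdhd (0.0598), and highest for Cox6b2 (0.319), Cox8b (0.278) and Cox6a2 (0.259). Its median was 0.17 over the 38 nuclear genes with under 600 coding bases and 0.099 over the 15 longer ones. Other nuclear genes with a mean of at least 100 CPM had 0.118 (266 short) and 0.0972 (1624 long). In pool 2 of the Cre control and the mutant, short respiratory genes had median deviations from their group mean of 0.202 and 0.226. The 266 other short genes deviated the same way there, by 0.0927 and 0.129. Between Mib1 mutant and Cre control the median log2 difference was -0.23 for the short and -0.23 for the long respiratory genes, against -0.07 and 0.02 for the other short and long genes. Among the short genes, 36 of 38 respiratory ones and 190 of 266 others were negative. The others still held respiratory genes outside the rule, such as Cyc1 and genes of complex I, and the 100 CPM floor applied to the others only. Level was not held apart from length (Cox6b2 is a rare isoform), and the part of fragment or RNA length in these values was not tested.

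Other genes of the pathway, from lists chosen with earlier results known, lay the same way. Of 5 tested carriers and subunits outside the symbol rule, 5 were negative and 0 called (median -0.24), among them Cyc1, the cytochrome c1 subunit of complex III, at 317, 376 and 375 CPM against 419, 495 and 430.4 (-0.33, SE 0.0914, adjusted p = 0.091), Cycs, cytochrome c (-0.33, adjusted p = 0.227), and Ndufa4, now placed in complex IV (-0.24, adjusted p = 0.239). Assembly and translation factors outside the rule were negative for 29 of 30 (median -0.17, 0 called), and carriers, porins and kinases for 15 of 15 (median -0.18, 0 called). Transcriptional regulators of mitochondrial genes gave 13 of 18 negative, with a median of -0.07 and 0 called. Ppargc1a, a coactivator of this programme, differed by -0.07 (adjusted p = 0.795) and Esrrg, an estrogen-related receptor of heart, by -0.07 (adjusted p = 0.77). Tfam, which packages and transcribes mitochondrial DNA, was at 52.5, 55.2 and 58.1 CPM against 59.9, 58.8 and 59.3, without overlap (-0.10, adjusted p = 0.535). Perm1, a muscle regulator of oxidative genes, had mutant pools below the Cre control without overlap, at 28.2, 24.4 and 26.03 CPM against 34.5, 36.3 and 29.4 (-0.35, SE 0.0943, adjusted p = 0.0878). Mterf3, a mitochondrial transcription factor, differed by -0.27 (adjusted p = 0.254), also without overlap. Among the 5 positive regulators, Gabpb1 had mutant pools above the Cre control without overlap, at 34.6, 35.4 and 36.7 CPM against 32.3, 30.3 and 33.2. Mterf1a had mutant pools below the Cre control without overlap, at 3.33, 3.36 and 3.19 CPM against 3.96, 3.72 and 4.26. All mutant pools lay below all Cre control pools for 7.75% of all genes, and the share above was not counted. Perm1, Mterf3, Mterf1a and Gabpb1 were named after their values were seen.

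Markers of several cell types also differed between these libraries. The 10 cardiomyocyte markers had a median of -0.24 (9 negative, 0 called), and their summed level was 40821 to 49831 CPM in mutant pools and 50305 to 55851 in Cre control pools. Set against those markers, the respiratory genes of the mutant and the Cre control differed by less than the spread between pools. Their mean log2 CPM minus that of the markers was -3.68 ± 0.11 (SD, n = 3) in the mutant, -3.65 ± 0.10 in the Cre control, -3.69 ± 0.05 in WT and -3.60 ± 0.04 in the triple heterozygote. All 7 fibroblast markers were positive (median 0.23, 0 called, 4680 to 5816 against 4272 to 4345 CPM). Of 4 atrial markers 3 were positive (median 0.37, 0 called), with a summed level of 768 to 1206 against 930.2 to 1019 CPM. Among them Myl7, the atrial light chain, named after its values were seen, was at 195, 315 and 211 CPM in the mutant against 155, 153 and 164, without overlap (0.61, SE 0.177, adjusted p = 0.111). Of 8 leukocyte markers 7 were negative, with C1qb and Lyz2 called lower (median -0.59, 59.0 to 80.4 against 87.5 to 104.8 CPM). Of 6 smooth muscle and pericyte markers 4 were positive and 2 negative, with Tagln called higher (median 0.21). Their summed level was 1396 to 2146 CPM in mutant pools and 1501 to 1588 in Cre control pools. The part of these markers in the respiratory values was not tested.

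Isoform choice was measured per length within 4 pairs of complex IV genes, in 12 comparisons. Cox6a2 made up 34.5, 35.7 and 36.9% of the Cox6a2 and Cox6a1 reads per kilobase in the Mib1 mutant and 39.4, 46.1 and 41.4% in the Cre control. The means were 35.7 ± 1.2% and 42.3 ± 3.4% (SD), a difference of -6.64 percentage points without overlap. The exact two-sided permutation test gave p = 0.1, the smallest that 3 pools against 3 allow, and 0.2 after Benjamini-Hochberg adjustment over the 12. The shares of Cox7a1 (26.8 ± 2.3% against 28.2 ± 1.7%), Cox8b (27.4 ± 4.5% against 30.5 ± 1.7%) and Cox4i2 (1.75 ± 0.44% against 1.51 ± 0.20%) overlapped. In the triple heterozygote against WT, all 4 shares were lower without overlap: Cox6a2 41.8% against 44.2%, Cox7a1 28.2% against 30.5%, Cox8b 29.3% against 33.6% and Cox4i2 1.27% against 1.42% (each exact permutation p = 0.1, adjusted 0.2). The Cox7a1 share of the Cre control, 28.2%, was also below WT without overlap.

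**Figure D4:**
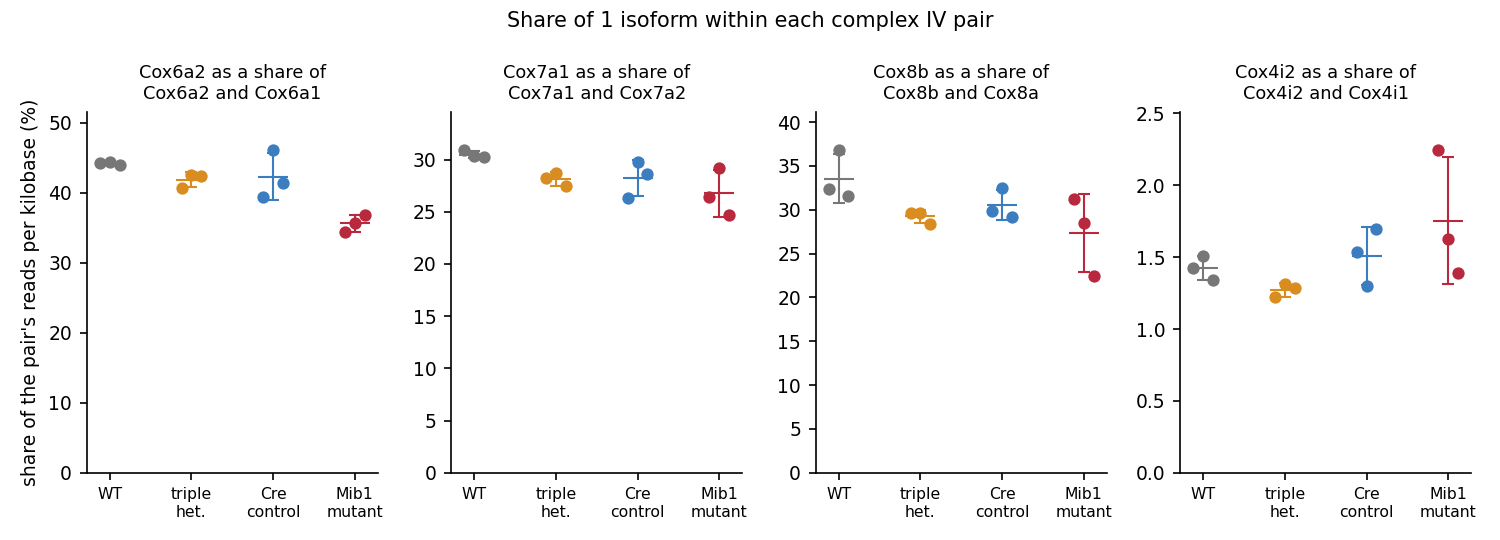
Share of 1 isoform in the reads per kilobase of its pair (vertical axis, percent, each panel starting at 0) in the 3 pools of each genotype; bars are mean and SD. The Cox6a2 share lies between 34.5 and 36.9% in the Mib1 mutant, below all pools of the other genotypes.

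The triple heterozygote, compared with WT to show what single copies of the 3 alleles do together, gave no common direction. edgeR called 0 of 59 genes, where 0.0215% of all genes were called. DESeq2 and limma-voom called 0 as well, where they called 0.2% and 0.0215% of all genes. The median log2 fold change was 0.04, against 0 for all genes, with 25 negative and 34 positive. At an unadjusted p of 0.05, 1 was lower (4.84% of all genes were) and 0 higher. In 4 genes all triple heterozygote pools were below all WT pools (9.19% of all genes): Sdha, Uqcrc2, Uqcrfs1 and Atp5b. Neither share is above that of all genes. Cox19, an assembly factor, was the only one with all pools above WT (27.9, 27.7 and 25.5 against 24.4, 25.1 and 25.3 CPM).

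Sdha had the smallest p, at 893, 868 and 870.2 CPM against 976, 980.1 and 958 in WT (-0.15, SE 0.0619, adjusted p = 0.565). Cox8a was at 183, 231 and 188 CPM against 158, 157 and 184 (0.27, SE 0.128, adjusted p = 0.576), and Atp5e, the epsilon subunit, differed by 0.21 (adjusted p = 0.61). Uqcrc2 differed by -0.13 and Cox6a2 by 0.09 (adjusted p = 0.617 and 0.885). By complex, medians ran from -0.08 (II) over 0.00 (III), 0.03 (IV subunits) and 0.05 (V) to 0.11 (IV assembly). The median over all 59 genes was between 0.00 without WT pool 1 and 0.08 without triple heterozygote pool 3. The 18 regulators of mitochondrial genes gave 9 negative and 9 positive values (median 0.0022, 0 called). Ppargc1a was at 179, 152 and 177 CPM against 205, 185 and 204 in WT (-0.23, adjusted p = 0.565), with no overlap. Perm1, named after its values were seen, was at 30.9, 29.9 and 33.6 CPM against 38.5, 41.8 and 41.6 (-0.37, adjusted p = 0.37), also with no overlap. All pools lay below WT for 9.19% of all genes. Mterf1a, also named after its values were seen, lay above WT without overlap, at 4.9, 4.2 and 2.77 CPM against 2.6, 2.61 and 1.07. Erythroid markers were higher in the triple heterozygote (summed 7164 to 8384 CPM against 4406 to 5176, with Hba-a1 and Hba-a2 called), and scaling without erythroid genes gave a median of 0.0451 over the 59 genes.

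Nuclear and mitochondrial genes parted in 1 library. In pool 2 of the triple heterozygote, the deepest one, 34 of 53 nuclear genes were the highest of the group, while the mean log2 CPM of the 6 mitochondrially encoded genes, 12.759, was the lowest of it. mt-Atp6, for example, was at 9291 CPM there and at 12937 and 10485 in the other two pools. The mitochondrial mean minus the nuclear mean was 5.183 in that pool and 5.60 and 5.515 in the others. In WT it was 5.511 ± 0.019 (SD, n = 3), 5.446 ± 0.018 in the Cre control and 5.417 ± 0.024 in Mib1 mutant pools. The part of depth in this pool's values was not tested.

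**Figure D5:**
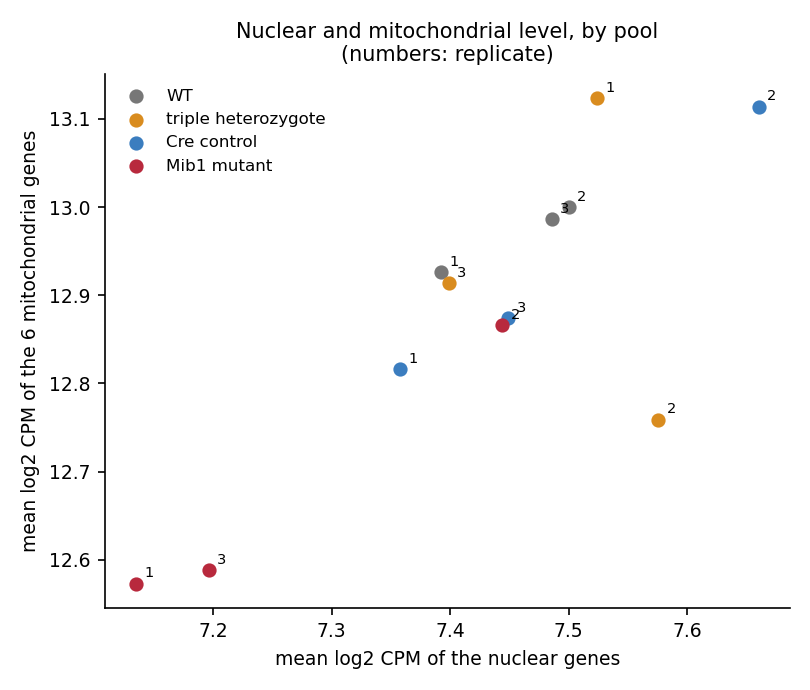
Mean log2 CPM of the 6 mitochondrial genes (vertical axis) against that of the tested nuclear genes (horizontal axis) in each of the 12 pools; numbers are replicates. Mib1 mutant pools 1 and 3 are lowest on both axes, mutant pool 2 lies at Cre control pool 3, and triple heterozygote pool 2 is high on the nuclear and low on the mitochondrial axis.

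The difference between the 2 effects, the Mib1 mutant's against the Cre control minus the triple heterozygote's against WT, was tested in the same fit. edgeR called 0 of 59 genes, where 0.516% of all genes were called. DESeq2 and limma-voom also called 0, where they called 1.24% and 0.501% of all genes. The median was -0.27, with 57 negative, and 17 genes were lower at an unadjusted p of 0.05 (6.17% of all genes). Cox6a2 (-0.79, SE 0.236, adjusted p = 0.196), Cox6a1 (-0.50, SE 0.168, adjusted p = 0.24) and Cox10 (-0.40, adjusted p = 0.253) had the smallest p. mt-Cytb differed by -0.37 (adjusted p = 0.309), Atp5e by -0.45 (adjusted p = 0.274) and Sdhc by -0.24 (adjusted p = 0.378), while Sdha, with pools below their control in both genotypes, differed by -0.05 (adjusted p = 0.832). The count of 17 was 3 without Cre control pool 2 (3.93% of all genes) and 5 without WT pool 1 (3.96%). It was 6 and 9 without Mib1 mutant pools 1 and 3 (5.54% and 5.78%). Without triple heterozygote pools 1 and 2 it was 8 and 9 (5.81% and 4.2%). It was 28 without Cre control pool 1 (6.59%) and 43 without Mib1 mutant pool 2 (10.1%).

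The 2 control groups, which differ by the floxed allele and Tnnt2-Cre and each serve in another comparison above, were close for most genes. Of 59 genes, edgeR called 0 (0.279% of all genes were called), as did DESeq2 (0.587%) and limma-voom (0.243%). The median of Cre control minus WT was 0.02, with 22 negative, and 1 gene was lower (4.2% of all genes) and 1 higher at an unadjusted p of 0.05. Sdha was the lower one, at 808, 861 and 915 CPM against 976, 980.1 and 958 (-0.17, SE 0.0619, adjusted p = 0.429), and Cox18 the higher one, at 10.7, 9.39 and 7.57 CPM against 6.76, 6.32 and 7.64 (0.41, adjusted p = 0.522). Sdha, Sdhd and Atp5b had all Cre control pools below all WT pools (10.2% of all genes did, a larger share). Uqcrc2 differed by -0.09, Cox8a by 0.16 and Atp5b by -0.09. Without Cre control pool 2 the median was -0.07, and without Cre control pool 1 it was 0.09.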

How the data were processed

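PolyA RNA of 12 ventricle pools was sequenced. The tools named, per the submitters' processing notes, are RSEM, limma, cutadapt and bcl2fastq 2.20.0.422, with the build GRCm38. Aligner, annotation release and use of strand in counting were not given in the sources used here. Values in the table that the authors deposited are expected counts, RSEM's estimates of reads, of which 9.64% were not whole; 27 of the 62 genes had such values in at least 1 pool, and their values are less certain if reads were shared with other sequences. Columns were matched to samples by the alleles in their names; those called mutant name neither flox nor Cre and were taken as the triple heterozygote, which is an inference. All columns were used (0 left out). Symbols, positions and lengths came from GENCODE M21; lengths are of all exons joined, so genes with long rare exons get a low RPKM.

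Rounded counts went through edgeR 4.0.16 under R 4.3.3 (TMM scaling, filterByExpr, quasi-likelihood F test, two-sided, all 12 libraries in 1 fit with 4 groups and 8 residual degrees of freedom). It tested 13964 genes, which held 99.9% of counts. Benjamini-Hochberg adjustment ran over all of them, with a threshold of 0.05. The square root of F divides the log2 fold change's size to give its SE. CPM uses TMM-scaled library sizes; 1 read is 0.0452 to 0.0991 CPM. Pools of different ventricles were replicates; whether they shared litters is not stated, so p-values measure the spread between pools. The procedure was tested on simulated data. Alternatives were median-ratio scaling, scaling without mitochondrial or erythroid genes, 2 other filters on low counts, limma-voom (limma 3.58.1), DESeq2 1.42.0, only the libraries compared, a replicate block, the sex mix of the pools and each pool left out.

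The genes and lists were chosen with earlier results of these data known. Genes named by rule were complex II, the mitochondrial genes, isoform pairs, the catalytic and c subunits, Uqcrc1, Uqcrfs1, and the smallest p of each complex and comparison; others were named after their values were seen.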

Additional observations from a re-analysis of the deposited data

How the results depend on the processing

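The number of respiratory genes called between Mib1 mutant and Cre control was 0 (1.5% of all genes were called). It was 4 without a filter on low counts (2.13%), 1 at a mean of at least 2 CPM (1.82%), 9 with DESeq2 (3.16%) and 1 with a covariate for sex mix (1.55%); with single pools left out it ranged from 0 to 17 (0.819% to 2.93%). For the difference between the effects it was 2 without a filter (1.1%). Replicate numbers were not taken to pair the pools: correlations of same-numbered deviations over tested genes were 0.131, 0.213 and 0.0322 for Mib1 mutant and Cre control and 0.108, 0.00701 and -0.0784 for triple heterozygote and WT. In the first comparison 4 of 6 pools correlated best with the pool of their own number, and pool 2 was the one most often highest for the 59 genes in all 4 genotypes (36, 34, 53 and 51 genes), a hint from the data and not from the design. With the replicate block 4 genes were called in the Mib1 mutant comparison (Sdhb, Uqcr11, Cox6a2 and Cox10), where 2.28% of all genes were called. In the difference between the effects 1 was called (Cox6a2, 0.781% of all genes). For triple heterozygote against WT and between the controls 0 were called (0.0215% and 0.423%). In the Mib1 mutant comparison 46 rather than 34 were lower at an unadjusted p of 0.05 (7.7% rather than 6.65% of all genes). The median of complex IV assembly factors, triple heterozygote against WT, ranged from 0.0217 (without WT pool 1) to 0.172 (without WT pool 3).

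Cox4i2 changed sign in the Mib1 mutant comparison: -0.00548 without a filter, -0.000233 at 2 CPM, -0.0286 with limma-voom, -0.00132 with DESeq2, -0.000227 with only the libraries compared, -0.0049 with the replicate block, -0.00616 with sex mix, -0.191 and -0.0471 without the first or second pools of both Cre groups, and -0.139 to 0.161 with single pools left out. Cox6b2 became -0.125 and -0.0566 without the first or second pools and ranged from -0.0814 to 0.269 with single pools left out, and mt-Atp8 from -0.247 to 0.0194. The difference in the Cox4i2 share ranged from -0.00185 to 0.424 percentage points in the Mib1 mutant comparison and from -0.00658 to 0.193 between the controls. The causes were not tested. The negative median of each complex in the Mib1 mutant comparison kept its sign under every alternative run. Leaving out pool 2 of both Cre groups was chosen after seeing the data. At 1 read per 0.0452 to 0.0991 CPM, depth limits the assembly factors and the rare isoforms more than the abundant subunits.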
